A study of Mus musculus with 2 samples.

Results

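Bone morphogenetic protein (BMP) signaling was examined in mouse embryo fibroblasts (MEFs) through 10 genes chosen by name: the ligand genes Bmp2 and Bmp4, the antagonist gene Grem1, the protease gene Bmp1, the receptor genes Bmpr1a and Bmpr2, the inhibitory Smad gene Smad6 and the target genes Id1, Id2 and Id3. The choice was made with earlier results of these data known. Every probe set whose single annotated gene symbol was one of the 10 names was taken. This gave 21 of the 34945 probe sets with 1 gene symbol. All 10 genes were found among the 18193 genes of the array. MEFs were grown from day 12.5 embryos of wild type mice and of Ebp1 knock out mice, which carry a retroviral gene trap in an intron of Pa2g4, the gene of the ErbB3 binding protein Ebp1. Both cultures were kept in medium with fetal bovine serum and were used at passage 2, and 1 array was hybridized per genotype. The sources used here do not say how many embryos each culture came from. Since each genotype has a single array, no replicate error and no test or p-value from replicates can be given, and array, culture and genotype cannot be told apart. In whole cultures, fewer cells of a type and less RNA per cell cannot be told apart either.

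BMPs are secreted ligands of the TGF-beta superfamily that bind pairs of type I and type II serine/threonine kinase receptors. The activated type I receptor phosphorylates Smad1, Smad5 and Smad9, which enter the nucleus with Smad4 and switch on target genes, among them the Id genes. Id proteins are helix-loop-helix proteins without a DNA-binding region, and they hold the E proteins and their partners away from DNA. The pathway is limited outside the cell by antagonists such as Gremlin 1, Noggin and Chordin, which bind the ligands, and inside it by the inhibitory Smads. In the embryo it patterns mesenchyme and directs fibroblast-like progenitors towards bone and cartilage.

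The promoters of 3 members are shown because among the members above 100 these genes have the log2 ratio farthest from 0 (Grem1), the farthest from 0 of the Id genes (Id2) and the nearest to 0 (Id3). The sequences are the 250 bases before the annotated start in RefSeq, build GRCm38.p6, written 5′ to 3′ in the direction of the gene. Capitals mark GGCGCC, a GC-rich sequence known to be bound by Smad1 and Smad5, and CAGAC or its reverse complement GTCTG, which hold the core of the Smad-binding element. The motifs do not overlap in these windows.
Grem1, chr2:113758649-113758898, minus strand: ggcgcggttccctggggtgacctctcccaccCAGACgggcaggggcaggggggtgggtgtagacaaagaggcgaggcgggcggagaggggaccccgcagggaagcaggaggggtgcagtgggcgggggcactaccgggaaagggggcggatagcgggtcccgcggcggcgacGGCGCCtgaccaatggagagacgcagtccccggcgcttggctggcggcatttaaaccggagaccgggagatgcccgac
Id2, chr12:25096093-25096342, minus strand: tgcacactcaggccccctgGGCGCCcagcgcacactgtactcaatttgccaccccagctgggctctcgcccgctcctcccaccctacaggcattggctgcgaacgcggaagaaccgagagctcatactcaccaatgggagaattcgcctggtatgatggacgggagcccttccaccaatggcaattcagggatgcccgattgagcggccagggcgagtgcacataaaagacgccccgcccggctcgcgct
Id3, chr4:136143572-136143821, plus strand: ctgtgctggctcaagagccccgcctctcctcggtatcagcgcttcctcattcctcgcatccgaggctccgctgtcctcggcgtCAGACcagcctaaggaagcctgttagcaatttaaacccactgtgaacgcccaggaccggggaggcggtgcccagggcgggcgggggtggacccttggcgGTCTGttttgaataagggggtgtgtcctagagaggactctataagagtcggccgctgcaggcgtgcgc
The Grem1 window holds 1 GGCGCC and 1 CAGAC, that of Id2 holds 1 GGCGCC, and that of Id3 holds CAGAC and GTCTG but no GGCGCC. Of the 7 members with a window in the table, 4 (Bmpr1a, Bmpr2, Grem1 and Id2) held GGCGCC on either strand, against 9.59% of all 32851 windows, and 2 (Grem1 and Id3) held CAGAC or GTCTG, against 42.2%. The windows of the members were GC-rich, with 62.8% to 78.8% G and C against a median of 52.4% over all windows. The shares over all windows were not matched for G and C, so no excess of GGCGCC can be read from them. Genes with GGCGCC lay on both sides, with higher signals for Grem1 and Id2 and lower signals for Bmpr1a and Bmpr2 in knock out MEFs. A match of letters is a description and does not show binding.

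The values are MAS5 signals in linear intensity units, scaled by the authors to 1 target for both arrays. For each probe set the wild type signal is given first and the knock out signal second, and a log2 ratio is that of knock out to wild type. The median signals were 66.5 and 71.6, and signals under 100, which made up 57.9% and 57.1% of the probe sets, were counted as low. Pa2g4, the targeted gene, was lower on the array labelled knock out on each of its 5 probe sets, with log2 ratios from -0.90 to -0.33, but was not absent there. Its signals were 1835 and 1178, 1343 and 1072, 761 and 409, 378 and 275, and 60.8 and 34.7, so that 4 of 5 stayed above 100. The ratio of the brightest (-0.64) lay at the edge of the middle 95% of genes of its signal range. That of 761 and 409 (-0.90) lay outside its range (-0.73 to 0.59). Those of 1343 and 1072 (-0.33) and of 378 and 275 (-0.46) lay inside theirs. The array values of Pa2g4 therefore do not settle the label, and where its probes lie relative to the insertion is not known here. In knock out MEFs the paper found no Ebp1 transcript by RT-PCR and no Ebp1 protein by Western blot. Why signals remained on the array was not tested. Below, knock out means the array with that label. The label as fibroblasts, not that of genotype, was checked against cell type markers. All 8 fibroblast markers, such as Col1a1, Col3a1, Vim and Thy1, reached 500, with summed signals of 52851 and 56351. They differed among themselves, as Thy1 was 4173 and 2784 (-0.58) and Pdgfrb 3098 and 1952 (-0.67), while S100a4 was 5499 and 7192 (0.39). Endothelial, leukocyte, skeletal muscle and erythroid markers stayed under 500 on both arrays. Under 100 on both were 4 of 5 endothelial, 3 of 5 leukocyte, 3 of 4 skeletal muscle and 3 of 3 erythroid markers with a probe set. The leukocyte markers Csf1r (366 and 385) and Adgre1 (146 and 154) and the endothelial marker Kdr (101 and 156) were above 100 on both. Of 5 epithelial markers 4 were under 100 on both arrays, while Epcam was 174 and 1350.5 on 1 probe set and 5.81 and 4.07 on its other one, and the 5 summed to 384 and 1606. Of the markers of tissues derived from mesenchyme or nerve, 1 of 4 chondrocyte, 1 of 4 neural and none of 3 osteoblast genes reached 500. The 4 smooth muscle and myofibroblast markers summed to 16385 and 19631.

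Of the 10 members, Grem1 was the only gene that reached 500 on 1 array or both and had a ratio over 2-fold. The paper sets a minimum of 500 without saying whether 1 array or both must reach it. It also sets a p-value limit and prints p-values for the genes it lists. That limit was not applied here, because the values used are signals without p-values. Counting genes that reached 500 on only 1 array was a choice made here. With 500 required on both arrays, no member was over 2-fold. Grem1 was higher in knock out MEFs. The criteria that Grem1 met, 500 on 1 array and over 2-fold, were met by 38 of 5014 genes in this direction (0.758%) and by 53 in the other (1.06%). This split was 27 higher and 70 lower after centring each array on its median, and 15 and 252 after scaling to spike-in controls. With the minimum set to 100, Grem1 was again the only member over 2-fold, against 1.58% of 10553 genes higher and 1.93% lower. The other 7 members that reached 500 lay within 2-fold, with log2 ratios from -0.57 to 0.50. Smad6 stayed under 500 on both arrays and Bmp2 under 100. Grem1 and Id2 reached 500 on the knock out array only, so that their passing the minimum depends on their being higher there. With the minimum of 500 set on the geometric mean of both arrays, an alternative chosen after seeing the data, no member was over 2-fold, since the mean of Grem1 lay under it.

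**Figure D1:**
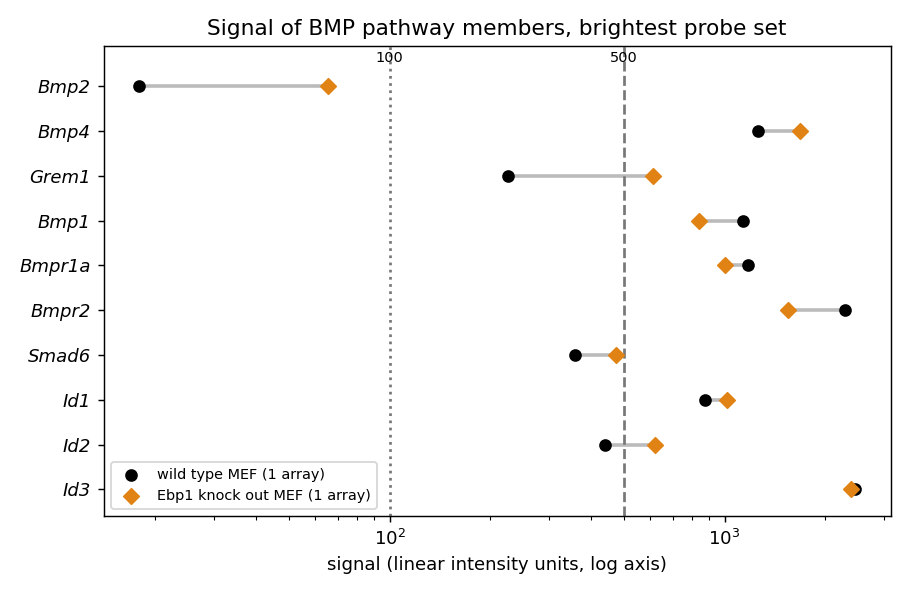
Signal of the 10 members on their brightest probe set (horizontal, linear intensity units on a log axis), with a black circle for wild type and an orange diamond for knock out MEFs, 1 array each. The dotted line marks 100 and the dashed line 500. Grem1 goes from 226 to 613 across the line at 500, Bmp2 lies under 100 on both arrays, and the symbols of Id3 overlap.

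The spread of the ratios depended on the signal, which sets how firmly each difference can be read. Among 8126 genes with a geometric mean signal of both arrays under 100 the log2 ratios had a standard deviation of 1.06 and 26.2% were over 2-fold apart, whereas among 917 genes above 2000 the standard deviation was 0.24 and 0.436% were over 2-fold apart. A second measure of spread came from genes with several probe sets. In 1487 genes with at least 2 probe sets that reached 500, the log2 ratios of the 2 brightest differed by a median of 0.24 and by 0.81 at the 95th percentile, and in 37.3% of these genes they lay on opposite sides of 0. Both measures are taken between these 2 arrays, so they hold differences of array, culture and genotype together and are no replicate error.

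**Figure D2:**
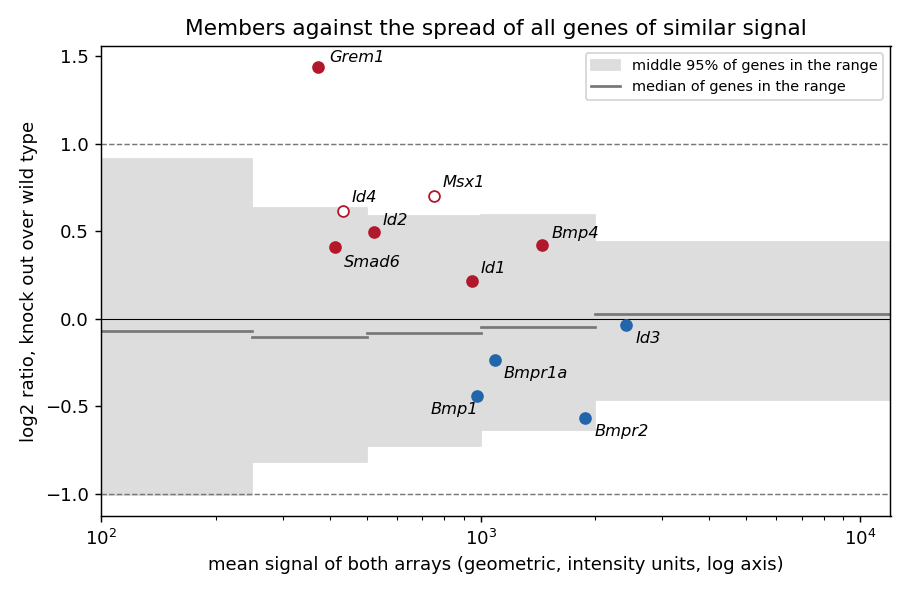
Log2 ratio of knock out to wild type signal (vertical) against the geometric mean signal of both arrays (horizontal, log axis) for the 9 members above 100 (filled, red higher and blue lower) and for Id4 and Msx1 (open). Grey blocks span the middle 95% of all genes in each range of signal and grey lines are their medians. Grem1 lies above the block of its range, Msx1 just above its own, and the other 8 members shown lie inside theirs.

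Grem1 encodes Gremlin 1, a secreted antagonist that binds BMP2, BMP4 and BMP7 and keeps them from their receptors. On its single probe set, the wild type signal of 226 compared with a knock out signal of 613 (1425357_a_at), a log2 ratio of 1.44 or 2.71-fold. Both signals were above the low range, and the ratio lay outside the middle 95% of the 2622 genes with a mean signal from 250 to 500, which ran from -0.82 to 0.63. In that range 1.98% of genes were over 2-fold apart in either direction. There is no other probe set to check it against. Epcam, the epithelial marker that was higher on 1 probe set, was higher in the same direction, with the other 4 epithelial markers low on both arrays, and its part in the Grem1 result was not tested.

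Bmp4 encodes a ligand that acts on early mesenchyme. Its signals were 1255 and 1680 (log2 ratio 0.42). This was inside the middle 95% of genes of its signal range, which was -0.64 to 0.59. Bmp2, which encodes a ligand best known for inducing bone, was 17.9 and 65.7. Both signals are low, so no fold is given. Among the members, the ligand gene above 100 (Bmp4) and the antagonist gene (Grem1) were thus both higher on the knock out array, with the larger ratio for Grem1. With spike-in scaling the log2 ratio of Bmp4 was only 0.03. Outside the members, the ligand genes that reached 100 on the wild type array, Bmp6 (131 and 80.9) and Gdf10 (208 and 68.8), were lower.

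The receptor genes were lower in knock out MEFs on their brightest probe sets. Bmpr2, which encodes the type II receptor of BMPs, was 2289 and 1545 (1434310_at, log2 ratio -0.57), which is near the lower end of the middle 95% of its signal range (-0.64). Its other probe sets were dim, at 94.7 and 94.5 on one and at 82.7 and 103 on the other (0.00 and 0.31). Bmpr1a, which encodes a type I receptor, gave 1179 and 1001 on the brightest of 6 probe sets (1425492_at, -0.24). Its next brightest were 691 and 469 (-0.56) and 531 and 322 (-0.72), the last on a probe set whose suffix _s_at marks probes shared between transcripts. Another was flat at 261.2 and 261.9 (0.00). A further probe set of Bmpr1a was 108 and 97.2, and the last was 12.7 and 6.70, which is low on both arrays. Of the 4 Bmpr1a probe sets above 100 on both arrays 3 were lower, and the 4 log2 ratios spanned 0.73.

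**Figure D3:**
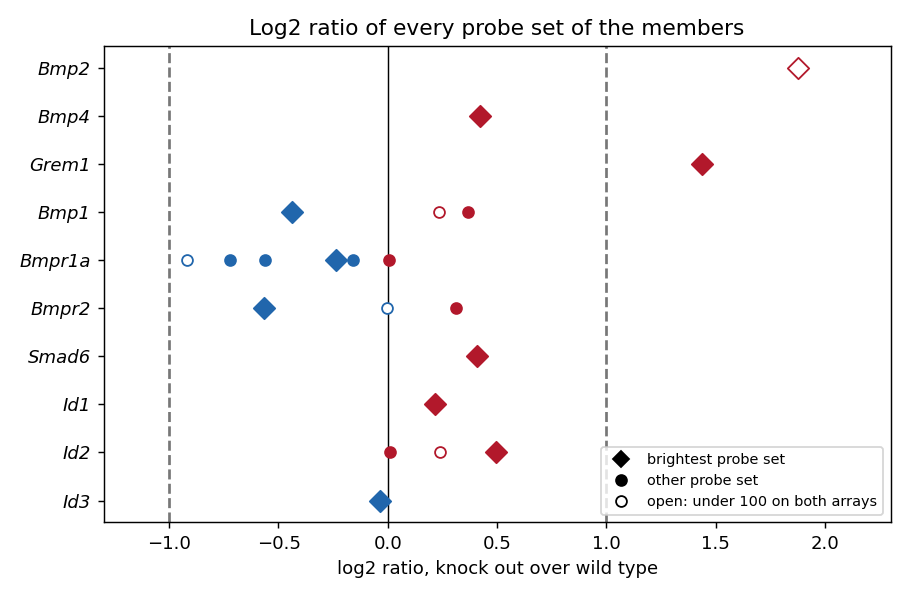
Log2 ratio of knock out to wild type signal (horizontal) for all 21 probe sets of the 10 members. Diamonds mark the brightest probe set of a gene, circles the others, and open symbols those under 100 on both arrays, with red for higher and blue for lower. Dashed lines mark 2-fold. The filled probe sets of Bmp1 and Bmpr2 fall on both sides of 0, those of Bmpr1a lie below or at 0, and Grem1 is the only filled symbol beyond a dashed line.

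Smad6 encodes an inhibitory Smad that blocks signaling by BMP receptors and is itself induced by it. It was 358 and 476 on its single probe set (log2 ratio 0.41), just short of the minimum of 500 and inside the middle 95% of its range.

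The Id genes differed less than Grem1. Id1, the classical immediate target of BMP signaling, was 877 and 1019 on its single probe set (log2 ratio 0.22). Id2, which encodes a partner of E proteins and of Rb, was 439.8 and 621 on its brightest probe set (1435176_a_at, 0.50). A second Id2 probe set of similar signal was level at 381 and 383 (0.01), and the third was low at 47.2 and 55.7. Both Id2 probe sets above 100 were thus at or above 0 but differed from each other by 0.49, about as much as the larger ratio itself. Id3 was 2448 and 2387 (-0.04), a difference well inside the middle 95% of genes above 2000 (-0.46 to 0.44). All 3 Id genes lay inside the middle 95% of genes of similar signal. With 1 array per genotype this does not show that they were equal.

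Bmp1 shares the name of the BMPs but encodes an astacin metalloprotease of the tolloid family, which trims procollagens and cleaves the antagonist Chordin. It was 1137 and 839 on its brightest probe set (1426238_at, log2 ratio -0.44), inside the middle 95% of its range (-0.73 to 0.59). A dimmer probe set lay the other way at 123 and 159 (0.37), and a low one was 35.2 and 41.4. The direction for Bmp1 thus rests on the choice of probe set, and the mean log2 ratio over its 3 probe sets was 0.05.

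The wider pathway was described with a list of 63 other genes, of which 58 had a probe set named here and 21 reached 500. Of these 21, 11 were higher and 10 lower on the brightest probe set, and none differed by over 2-fold on it. The median of their log2 ratios was 0.05, against -0.05 over all 5014 genes that reached 500. The 11 include Fstl3, Twsg1 and Id4, which reached 500 on the knock out array only, and with at least 500 on both arrays 8 were higher and 10 lower. The split was 2 higher and 20 lower with spike-in scaling and 15 and 6 with the mean over all probe sets. No test was run on the list. For the counts by role below, members included, the minimum was 100 on the geometric mean of both arrays, which favours neither direction and was chosen after seeing the data. At that minimum 41.3% of all 10067 genes were higher, and 8.85% with spike-in scaling. The median log2 ratio was -0.70 for ligands, 0.26 for antagonists, -0.22 for receptors and coreceptors and 0.11 for Smads and their regulators. It was 0.31 for targets, 0.08 for tolloid proteases and enhancers and -0.14 for E proteins, against -0.07 over all genes.
The other ligand genes were mostly low, with 8 of 10 under 100 on both arrays and none at 500. Bmp6 was 131 and 80.9, at least 1.31-fold lower with the low signal set to 100, and Gdf2 was 85.5 and 91.2. Gdf10 was 208 and 68.8, at least 2.08-fold lower on the same terms. Bmp4 was thus the only BMP ligand gene among those measured that reached 500. With Bmp4, 1 of 3 ligand genes was higher (33.3%, against 41.3% of all genes), and 1 of 3 with spike-in scaling (33.3%, against 8.85%).
Of 14 antagonists with a probe set 5 reached 500. Fst, which encodes the activin and BMP antagonist follistatin, was 848 and 1028 (0.28), and its other probe set gave 0.18. Fstl1 was 6778 and 6311 (-0.10) and Bmper, which encodes a modulator of BMP in vessels, 745 and 632 (-0.24). The other two were named after their values were seen. Fstl3 was 408 and 574 (0.49) and Twsg1 455 and 541 (0.25). The genes of Noggin and Chordin, also named after their values were seen, did not reach 500, at 27.9 and 50.6 for Nog and 159 and 214 for Chrd (0.43). No antagonist besides Grem1 was over 2-fold apart at a signal of 100 or more. With Grem1, 6 of 8 antagonist genes were higher (75%, against 41.3% of all genes), and 3 of 8 with spike-in scaling (37.5%, against 8.85%).
With the members, 3 of 9 receptor and coreceptor genes were higher (33.3%, against 41.3% of all genes), and none with spike-in scaling (against 8.85%). Acvr1, which encodes the type I receptor ALK2, was 714 and 589 (-0.28), with 2 dimmer probe sets above 0 (0.35 and 0.47), and Acvr2a, a type II receptor gene, was 603 and 518 (-0.22), and its other probe set gave -0.53. The coreceptor gene Eng was 439 and 474 (0.11), and its other probe set gave -0.32. At the minimum of 500 there were 4 receptor genes, the members Bmpr1a and Bmpr2 with Acvr1 and Acvr2a, and all 4 were lower on the brightest probe set. Of all 4604 genes with a mean signal of at least 500, 57.2% were lower, and 94.1% with spike-in scaling. Bambi, which encodes a decoy receptor, was 211 and 264 (0.32).
Among Smads and their regulators, Smad4, the common partner, was 1737 and 1717 (-0.02), Skil 1296 and 1338 (0.05) and Ski 1002 and 1102 (0.14). The inhibitory Smad gene Smad7 was 545 and 629 (0.21). Smad5, named after its values were seen, was 458 and 282 (-0.70) on its brightest probe set, while its dimmer ones were above 0 (0.08 and 0.19). Smurf2, likewise, was 974 and 850 (-0.20) on its brightest probe set, while another above 100 on both arrays gave 1.10. With Smad6, 6 of 9 genes of this group were higher (66.7%, against 41.3% of all genes), and 1 of 9 with spike-in scaling (11.1%, against 8.85%).
Among target genes, the homeobox gene Msx1 was 590 and 958 (0.70), and its other probe set gave 0.52. Id4, which encodes another Id protein, was 349 and 535 (0.62), with log2 ratios from 0.60 to 0.77 on its 3 probe sets. Id4 was thus the Id gene with the largest ratio, although it reached 500 on the knock out array only. Msx2 was 134 and 166 (0.31). Hey1, named after its values were seen, was 152 and 85.5, at least 1.52-fold lower, and Gata3, likewise, was 56.6 and 129, at least 1.29-fold higher. With the members, 5 of 7 target genes were higher (71.4%, against 41.3% of all genes), with a median log2 ratio of 0.31 against -0.07. With spike-in scaling 3 of 7 were higher (42.9%, against 8.85%), and the medians were -0.08 and -0.46. Gata3 is not among the 7.
Tll1, which encodes another tolloid protease, was 549 and 710 (0.37), and Pcolce, whose product enhances the procollagen protease activity of BMP1, was 6905 and 6441 (-0.10), with Pcolce2 at 263 and 317. With Bmp1, 2 of 4 genes of this group were higher (50%, against 41.3% of all genes), and none with spike-in scaling (against 8.85%). The genes of the E proteins, the partners of Id proteins, were below 0 on their brightest probe sets but not on all others, with 1687 and 1348 for Tcf12 (-0.32), 656 and 593 for Tcf3 (-0.14) and 1315 and 1199 for Tcf4 (-0.13), whose 5 other probe sets were all above 0 (0.19 to 0.88). The brightest was also the lowest of the 5 probe sets of Tcf12, where those above 100 on both arrays reached 0.51, and another probe set of Tcf3 gave 0.20. On the brightest probe sets 0 of 3 E protein genes were higher (against 41.3% of all genes), and 0 of 3 with spike-in scaling (against 8.85%).

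**Figure D4:**
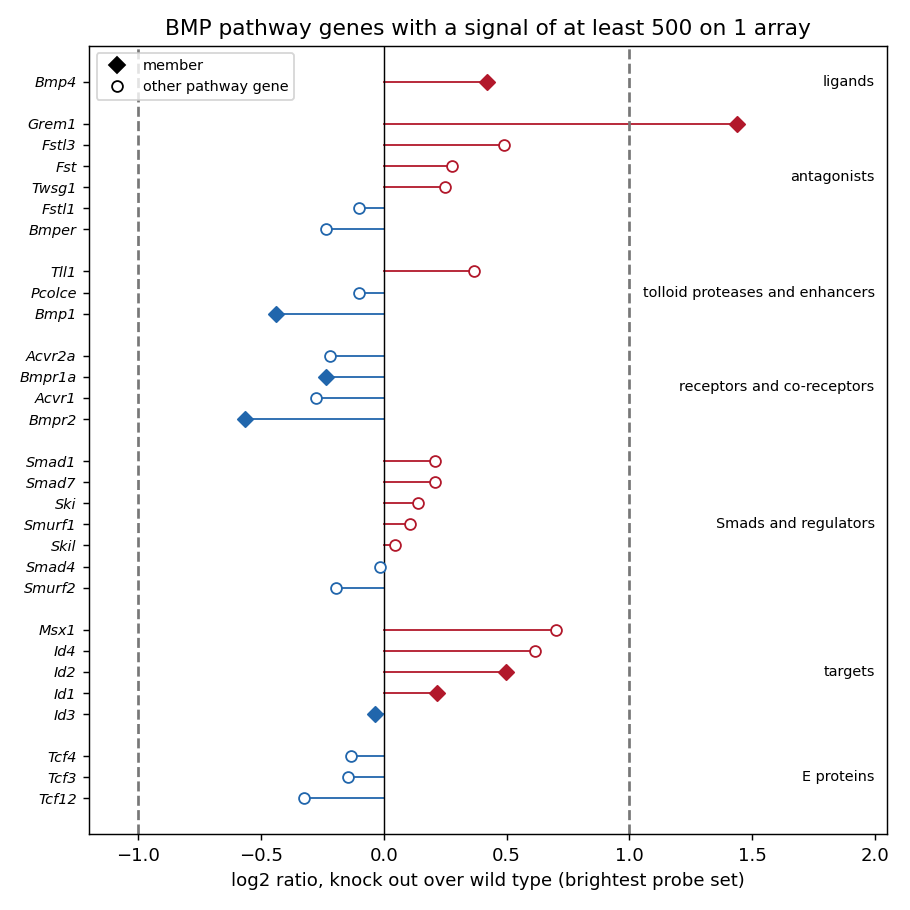
Log2 ratio of knock out to wild type signal (horizontal) on the brightest probe set of the 29 BMP pathway genes with a signal of at least 500 on 1 array, grouped by role. Filled diamonds are the 8 members and open circles the 21 other genes, red for higher and blue for lower, and dashed lines mark 2-fold. Grem1 is the only gene beyond a dashed line, the 4 receptor genes lie below 0, and the target genes other than Id3 lie above 0, of which Id2 and Id4 reached 500 on the knock out array only.

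The balance of higher and lower depends on how the arrays are scaled. Centring each array on its median lowered every log2 ratio by 0.11, and scaling to the 9 hybridization spike-in probe sets lowered every ratio by 0.39. Grem1 was 1.05 with spike-in scaling and 1.33 to 1.47 with the other scalings, and so was over 2-fold higher under each. Bmp4, Smad6 and Id2 were above 0 under each scaling, at 0.03, 0.02 and 0.10 with spike-ins, and Id1 was below 0 with spike-ins (-0.17). Bmpr1a, Bmpr2, Bmp1 and Id3 were below 0 under each scaling, and Bmpr2 was lowest with spike-ins, at -0.96.

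**Figure D5:**
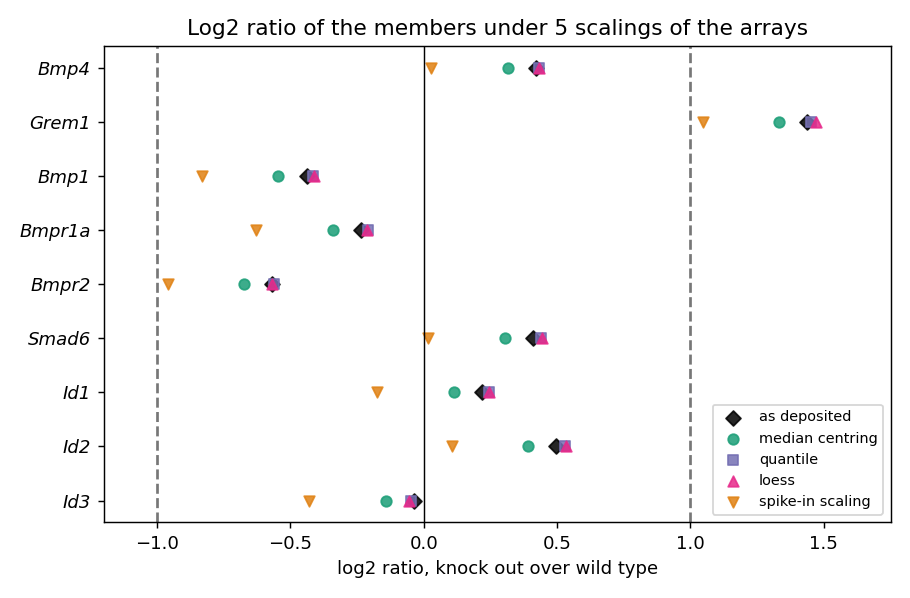
Log2 ratio of knock out to wild type signal (horizontal) of the 9 members above 100, on the brightest probe set, with the signals as deposited and under 4 other scalings of the arrays, by symbol. Dashed lines mark 2-fold. Spike-in scaling (orange triangles) lies 0.39 to the left of the deposited values, which puts Id1 below 0 and leaves Grem1 beyond the dashed line.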

How the data were processed

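RNA of wild type and Ebp1 knock out MEFs was measured on 1 Affymetrix array per genotype. The deposited values are signal intensities per probe set, which the authors computed with Microarray Suite 5.0 (MAS5) from perfect match and mismatch probes and scaled per array to a constant target. Detection calls and the genome build are not given in the sources used here.

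The 64 control probe sets were left out, which left 45037. Of these, 34945 had 1 gene symbol, 932 several and 9160 none here. All 10 member symbols equalled the RefSeq symbol of their Entrez identifier. The probe set with the highest mean log2 intensity stood for a gene. A difference was counted when a signal reached 500 on 1 array and the ratio was over 2-fold, and signals under 100 were low, with a fold against them computed as a bound at 100. No test was run. The number of arrays limits the precision.

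The members and gene lists were chosen with earlier results of these data known. Named genes were all members, the 3 brightest of each role of the wider list, any list gene over 2-fold at 500, Id4, Smad7, Bambi and Pa2g4. Smad5, Smurf2, Hey1, Gata3, Fstl3, Twsg1, Nog and Chrd, and the cell type markers named, fall outside this rule. The alternatives were 4 other scalings (loess fraction 0.3), signals under 100 raised to 100, 50 added, other probe set choices, minimum signals and fold thresholds, and, chosen after seeing the data, a minimum on the geometric mean of both arrays. The scalings were run on simulated data in which all probe sets, spike-in controls included, shared a common shift. That check cannot decide between scalings that differ from each other here. Tables were handled with pandas 2.3.3 and numpy 2.4.6 under Python 3.11.15, loess came from statsmodels 0.14.6 and plots from matplotlib 3.10.9.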

Additional observations from a re-analysis of the deposited data

How the results depend on the processing

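Of 80 log2 ratios of members under 8 alternatives, 2 moved by over 1.5-fold, both for Bmp2, which was 0.77 with 50 added to each signal and 0.00 with signals under 100 raised to 100, by construction. The sign differed for 2, Id1 with spike-in scaling (-0.17) and Bmp1 with the mean over all probe sets (0.05). Many of the 80 could not move by over 1.5-fold, so the small count is no measure of robustness. Median centring and spike-in scaling shift every log2 ratio by 0.11 and 0.39, each less than 1.5-fold. No brightest probe set of a member ends in _x_at or _s_at. The 6 members with 1 probe set have no other to average with, and only Bmp2 has a brightest probe set with a signal under 100. Grem1 ranged from 1.05 to 1.47. The count of 1 member over 2-fold was 0 with at least 500 on both arrays and 0 at a fold threshold of 3, 0 with a mean of both arrays of at least 500 (chosen after seeing the data), and 2 with no minimum, where Bmp2 was added. The count of 91 genes over 2-fold was 23 with at least 500 on both arrays, 49 with a mean of at least 500, 406 at a threshold of 1.5, 24 at a threshold of 3, 371 with a minimum of 100, 2354 with no minimum and 267 with spike-in scaling (15 higher and 252 lower). It was split 27 higher and 70 lower after median centring and 95 and 40 with the mean over all probe sets, against 38 and 53. The median of the wider list, 0.05, was -0.06 after median centring, -0.06 with at least 500 on both arrays, -0.02 without the suffixes _x_at and _s_at and -0.38 with spike-in scaling, where Smad5 was over 2-fold lower (-1.09). A changed minimum or threshold moves a count by its own construction. The cause was not tested for the rest. No paired analysis was possible because each genotype has a single array. Low signal limits Bmp2 and most other ligand genes.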

Other observations

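Markers of the lineages that BMPs direct were also measured. Of 4 chondrocyte markers, Col2a1, which encodes the main collagen of cartilage, had a wild type signal of 514 and a knock out signal of 781 (log2 ratio 0.60), Sox9 was 189 and 176 (-0.10), Col9a1 was 140 and 198 (0.50) and Acan, which encodes aggrecan, was under 100 on both arrays. Of the osteoblast markers with a probe set named here, Alpl, which encodes alkaline phosphatase, was 140 and 91.4, at least 1.40-fold lower, and Sp7 and Ibsp were under 100 on both arrays. The 4 markers of smooth muscle and myofibroblasts were 8283 and 9902 for Acta2 (0.26), 6891 and 7586 for Tagln (0.14), 119 and 166 for Myh11 (0.48) and 1092 and 1977 for Cnn1 (0.86). These values come from 1 array per genotype and none was tested.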
